A study of Homo sapiens with 32 samples.

Results

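Proteases outside the cell cut the extracellular matrix, and 2 systems that feed into each other do much of this work. In the plasminogen system, urokinase (PLAU) and tissue plasminogen activator (PLAT) turn plasminogen into plasmin, PLAUR holds urokinase at the cell surface, and serpins such as SERPINE2 (protease nexin-1) block the activators. Matrix metalloproteinases cut collagen and other matrix proteins. MMP14 sits in the membrane and, with TIMP2, brings the gelatinase MMP2 into its active form, MMP1 is a collagenase, and TIMP2 and TIMP3 inhibit the metalloproteinases. The 9 genes SERPINE2, PLAU, PLAT, PLAUR, MMP1, MMP2, MMP14, TIMP2 and TIMP3 are described here, chosen by name from the 60107 genes of the count table, where each matched 1 row. They were chosen with earlier results of these data known.

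RNA of HEK293T cells, which come from human embryonic kidney, and of U2OS cells, an osteosarcoma line, was sequenced from the 3′ ends of transcripts in 32 libraries, named here by the number in their titles (library 9 was not analysed here). Libraries 26 to 29 were U2OS cells given camptothecin (CPT, a topoisomerase 1 poison) and libraries 30 to 33 were U2OS cells given the vehicle DMSO. Libraries 22 to 25 were HEK293T cells given DMSO, and libraries 18 to 21 carry the label HEK293T ATM KO, while the study describes an ATM inhibitor for HEK293T RNA. They are called the ATM inhibitor libraries here, and ATM itself stood at 56.6 ± 7.28 CPM (counts per 1000000 counts on genes) in them against 59.7 ± 10.3 in libraries 22 to 25 (mean ± SD, n = 4). The labels give 24 h of treatment and 48 h of recovery for libraries labelled HEK293T, among them 18 to 25. They give 72 h of growth for libraries labelled U2OS WT or U2OS ATM KO. For libraries numbered under 18 these times are not relied on, because most of those labels name the wrong line, as described below. Labels give no times for U2OS libraries 26 to 33, whether given CPT or DMSO, and doses are not in the labels. U2OS cells without ATM came from CRISPR/Cas9 clones, according to the methods. The methods describe 4 independent repeats, but the labels do not say what separates the libraries of a group, so p-values measure the spread between these libraries.

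Most of libraries 1 to 17 went against the line in their labels, so no condition is read from those labels. Summed over 8 genes that mark the U2OS line (CD44, CAV1, CAV2, S100A6, ANXA1, LGALS1, AXL and TGFBI), libraries 1 to 8 held 1260 to 1725 CPM and libraries 10 to 17 held 45.3 to 148 CPM. In libraries 22 to 25 the same sum was 55.8 to 93.3 CPM, and in libraries 30 to 33 it was 1003 to 1111 CPM. By this sum 14 of the 32 libraries, all among the 16 numbered 1 to 17, had the profile of the other line than their label names. The profile was assigned by whether this sum exceeded that of 8 genes listed for HEK293T cells, and the U2OS sum alone gives the same split. The HEK293T list did not mark its line in the DMSO controls. It summed to 348.5 to 465.8 CPM in U2OS libraries 30 to 33 and 252.9 to 330.5 CPM in HEK293T libraries 22 to 25. The even libraries 10, 12, 14 and 16 (labelled U2OS ATM KO) are set against the odd 11, 13, 15 and 17 (3 labelled U2OS WT and 1 HEK293T DMSO), and the even libraries 2, 4, 6 and 8 (labelled HEK293T CPT) against the odd 1, 3, 5 and 7 (1 labelled U2OS WT and 3 HEK293T DMSO). The rule that chose these columns takes the former as HEK293T cells with CPT and control and the latter as U2OS cells with ATM knocked out and wild type. CDKN1A and MDM2, targets of p53 after DNA damage, stood at 144 ± 52.6 and 415 ± 50.3 CPM in libraries 10, 12, 14 and 16 against 32.2 ± 13.7 and 189.8 ± 34.9 in 11, 13, 15 and 17. ATM, the gene the rule takes as knocked out, stood at 56.1 ± 14.1 CPM in libraries 2, 4, 6 and 8 against 68.0 ± 7.91 in 1, 3, 5 and 7, and did not pass the test (log2 fold change -0.31 ± 0.17 (SE), adjusted p = 0.255).

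The libraries held between 1232674 and 6362433 counts on genes, so that 3 counts, the smallest number taken here as detected, equal 0.472 to 2.43 CPM before scaling. Levels are given as CPM scaled by TMM factors over all 32 libraries. Levels are set beside each other between genes because 3′ counts do not grow with transcript length. Other differences between genes in how they are counted were not tested. In bulk RNA, fewer cells of a type and less RNA per cell cannot be told apart. A gene was called where edgeR's quasi-likelihood test gave a Benjamini-Hochberg adjusted p under 0.05 over all genes tested and the absolute log2 fold change was over 1. Of the 9 genes 7 were tested in every comparison, while MMP1 and TIMP3 did not reach more than 1 count in 2 libraries of any comparison. MMP1 had 3 counts in library 16, 1 count in each of libraries 2, 7, 10 and 27, and 0 elsewhere. TIMP3 had 1 count in library 30 and 0 in the other 31 libraries, so that the levels of the collagenase MMP1 and the inhibitor TIMP3 could not be compared at this depth.

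RefSeq promoters (GRCh38.p14, 250 bases before to 50 after a transcript start) were at hand for SERPINE2 and PLAU, with 2 starts each, and for PLAUR, MMP14 and TIMP3, which makes 7 promoters of 5 genes. The 4 shown belong to the inhibitor, activator and receptor whose responses were called different between the 2 comparisons with the U2OS profile below. Capitals mark matches on either strand to the AP-1 letters TGANTCA, the TATA box TATAAA or the GC box GGGCGG.
SERPINE2, chr2:224038591-224038890, minus strand: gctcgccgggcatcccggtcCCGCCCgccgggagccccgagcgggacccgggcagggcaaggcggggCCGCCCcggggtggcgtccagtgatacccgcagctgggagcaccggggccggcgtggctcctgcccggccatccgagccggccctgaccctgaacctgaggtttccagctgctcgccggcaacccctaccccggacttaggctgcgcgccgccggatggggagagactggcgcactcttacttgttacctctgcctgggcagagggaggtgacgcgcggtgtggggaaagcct
SERPINE2, chr2:224031429-224031728, minus strand: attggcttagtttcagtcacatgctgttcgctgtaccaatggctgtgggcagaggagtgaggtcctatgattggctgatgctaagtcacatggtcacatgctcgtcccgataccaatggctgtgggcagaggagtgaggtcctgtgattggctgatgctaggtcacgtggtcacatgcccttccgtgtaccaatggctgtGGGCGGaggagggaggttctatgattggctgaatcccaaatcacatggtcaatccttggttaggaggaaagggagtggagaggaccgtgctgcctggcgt
PLAU, chr10:73910882-73911181, plus strand: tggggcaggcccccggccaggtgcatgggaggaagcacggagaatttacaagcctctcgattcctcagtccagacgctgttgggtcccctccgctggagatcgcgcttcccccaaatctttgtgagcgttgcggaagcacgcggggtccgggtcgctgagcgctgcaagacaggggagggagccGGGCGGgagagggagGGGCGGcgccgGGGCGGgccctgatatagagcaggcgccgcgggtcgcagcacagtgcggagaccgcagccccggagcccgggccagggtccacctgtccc
PLAUR, chr19:43670120-43670419, minus strand: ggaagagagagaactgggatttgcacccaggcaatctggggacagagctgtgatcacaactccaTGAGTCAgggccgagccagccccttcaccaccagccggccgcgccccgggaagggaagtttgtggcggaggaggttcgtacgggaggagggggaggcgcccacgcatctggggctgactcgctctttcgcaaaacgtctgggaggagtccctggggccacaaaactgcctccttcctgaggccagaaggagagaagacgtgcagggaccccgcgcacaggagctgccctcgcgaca
The PLAUR promoter held the only AP-1 match of the 7, whose first base lay at -186 from the start, against a match in 7.71% of 35116 promoters. GC boxes were found in 5 of the 7, against 45% of all, with 3 in the PLAU promoter shown, and no TATA box in any, against 11.5% of all. Matches are letters in these windows and no more, and the 3 motifs do not overlap each other in their letters.

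The members stood higher in U2OS than in HEK293T cells. All 7 that could be tested were called higher in U2OS DMSO libraries 30 to 33 than in HEK293T DMSO libraries 22 to 25, where 21.8% of the 19739 genes tested were called higher and 18.1% lower. As the members were chosen with earlier results of these data known, this count is no test of them against that share. Among the 6 with enough counts in HEK293T cells for a fold, the gelatinase MMP2 differed most, and the receptor PLAUR and the activator PLAT least.
MMP14 stood at 55.9, 86.8, 46.7 and 64.5 CPM in libraries 30 to 33, while libraries 22 to 25 held 3, 4, 3 and 1 counts of it. The HEK293T counts are too few for a fold, and the adjusted p was 1.95e-20. MMP2 stood at 129, 133, 121 and 191 CPM against 1.56, 1.78, 3.54 and 3.41 CPM. Its lowest U2OS library lay far above its highest HEK293T library, and the log2 fold change was 5.78 ± 0.20 (SE, adjusted p = 8.36e-23). TIMP2, the inhibitor that also bridges MMP14 and MMP2, had the highest mean of the members in both lines. Its level was 501 ± 37.6 CPM in U2OS and 62.3 ± 9.53 CPM in HEK293T (n = 4), an 8.09-fold difference.

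The plasminogen members followed with smaller folds. PLAU stood at 23.7, 26.9, 17.3 and 11.5 CPM in the U2OS DMSO libraries against 2.08, 2.54, 2.22 and 2.10 CPM in the HEK293T ones, with a log2 fold change of 3.13 ± 0.27. SERPINE2 was 4.98-fold higher, at 294, 302, 252 and 233 CPM against 55.1, 52.8, 61.6 and 48.7 CPM. HEK293T DMSO cells held SERPINE2 at about the level of TIMP2, whereas in U2OS DMSO cells TIMP2 was the higher of the pair. PLAT was 3.5-fold higher and PLAUR 3.47-fold higher. By the quasi-likelihood test 12256 of 19739 genes had an adjusted p under 0.05 between the lines. A difference between the lines is thus not particular to the members. The control columns of the other pairs, libraries 1, 3, 5 and 7 against 11, 13, 15 and 17, were set beside this after seeing the data and share no library with it. There all 7 were called higher as well, where 8671 of 19435 genes tested were called in either direction. Log2 fold changes ran from 2.57 (SERPINE2) to 5.42 (MMP2) for the 6 other than MMP14, which had 1, 1, 0 and 0 counts in libraries 11, 13, 15 and 17. The plot of levels by library shows the step between the lines for every member measured.

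**Figure D1:**
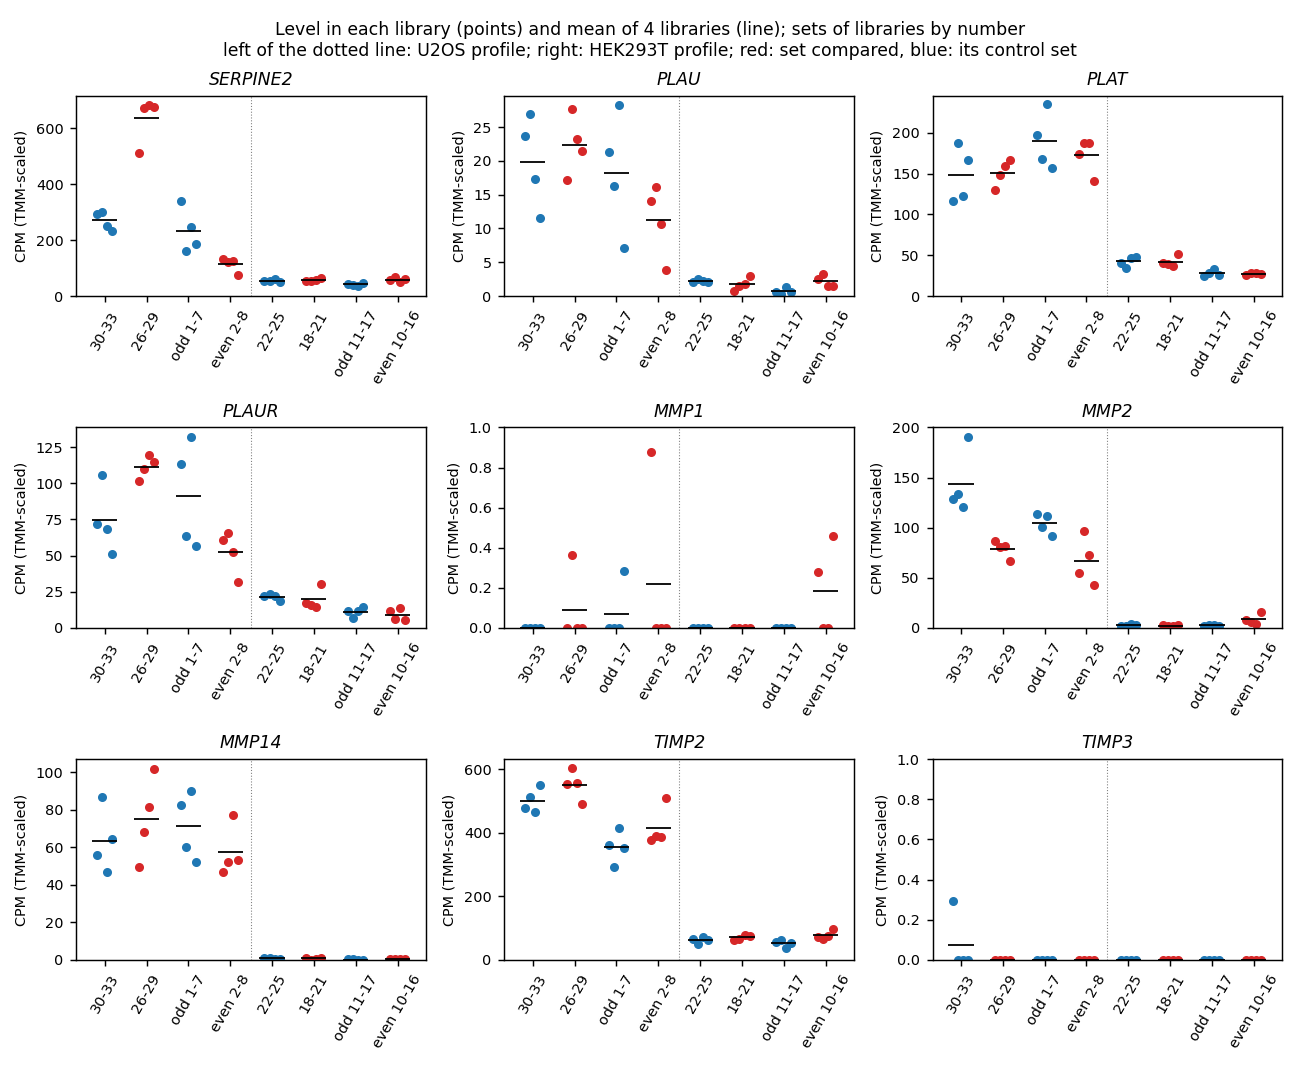
Level of each of the 9 genes (CPM scaled by TMM factors, y axis from 0) in the 8 sets of 4 libraries (x axis, by library number), with a point for each library and a line at the mean. The 4 sets with the U2OS profile, left of the dotted line, hold MMP14 at 46.6 CPM or more in every library, and MMP1 and TIMP3 stay at or under 3 counts everywhere.

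The wider protease network of the lines was read from 5 lists that were chosen with earlier results of these data known. Of the other plasminogen genes 18 were tested and 9 were called higher in U2OS and 4 lower, with a median log2 fold change of 1.07 (0.014 over all genes tested). SERPINI1 (neuroserpin, an inhibitor of PLAT) was among the lower, at 3.0 ± 1.47 CPM in U2OS and 17.7 ± 3.04 CPM in HEK293T cells.
Among 12 other metalloproteinases 7 were called higher and 1 lower, with a median of 2.48, or 1.66 when genes with a line at 0 are set to the smallest fold that 3 counts per library allow. MMP7 (matrilysin) had 14 to 28 counts in U2OS DMSO libraries and 0 in all 4 HEK293T DMSO libraries, which makes it at least 8.67-fold higher. MMP11 (stromelysin-3) was the mirror image, with 20 to 37 counts in HEK293T and 0 in U2OS DMSO libraries, at least 8.41-fold lower in U2OS.
Inhibitors and regulators of metalloproteinases had 5 of 10 called higher and 1 lower. SPARC, a matricellular protein, stood at 969.9 ± 60.5 CPM against 6.04 ± 3.36 CPM, and PCSK6, a proprotein convertase, at 2.77 ± 0.99 against 29.7 ± 2.17 CPM. Of 28 ADAM and ADAMTS proteases 10 were higher and 7 lower. ADAMTS16 had 56 to 96 counts in U2OS and at most 1 in HEK293T DMSO libraries, while ADAMTS1 stood at 1.91 ± 1.52 against 226 ± 7.59 CPM. Of 22 cathepsins and other pericellular proteases 10 were higher and 4 lower, with CTSZ (cathepsin Z) at 129 ± 51.3 CPM against 1 to 4 counts, and SPINT2, an inhibitor of membrane serine proteases, at 0 to 3 counts against 25.6 ± 7.78 CPM.

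With CPT in U2OS cells a single member was called, the inhibitor SERPINE2, which rose, where 7.97% of 19080 genes were called higher and 5.50% lower. SERPINE2 stood at 512, 673, 684 and 676 CPM in libraries 26 to 29 and at 294, 302, 252 and 233 CPM in libraries 30 to 33. Every CPT library lay above every DMSO library, and library 26 was the lowest of its set. The fold was 2.37 (log2 fold change 1.25 ± 0.12 SE, adjusted p = 6.78e-10).

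MMP2 and PLAUR moved in opposite directions by less than the fold cutoff. MMP2 stood at 86.4, 80.4, 81.4 and 66.6 CPM with CPT against 129, 133, 121 and 191 CPM with DMSO. The sets did not overlap, and the log2 fold change was -0.86 ± 0.13 with adjusted p = 6.00e-06. PLAUR stood at 101, 109.8, 120 and 115 CPM against 72.0, 106, 68.7 and 50.9 CPM. Library 31 reached into the range of the CPT libraries, and the log2 fold change was 0.60 ± 0.15 (adjusted p = 0.00204).
The remaining 4 members did not pass the test. The activators stood close to their controls, PLAT at 151 ± 16.1 against 148 ± 34.3 CPM and PLAU at 22.4 ± 4.31 against 19.9 ± 6.83 CPM. TIMP2 stood at 551 ± 45.6 against 501 ± 37.6 CPM (log2 fold change 0.14 ± 0.11, adjusted p = 0.331). MMP14 stood at 49.6, 68.4, 81.4 and 102 CPM with CPT against 55.9, 86.8, 46.7 and 64.5 CPM, the sets overlapped, and its adjusted p was 0.273. Among libraries with the U2OS profile, SERPINE2 passed TIMP2 in abundance only in CPT libraries 27, 28 and 29, where its level was 673, 684 and 676 CPM against 603, 557 and 492 CPM for TIMP2.

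**Figure D2:**
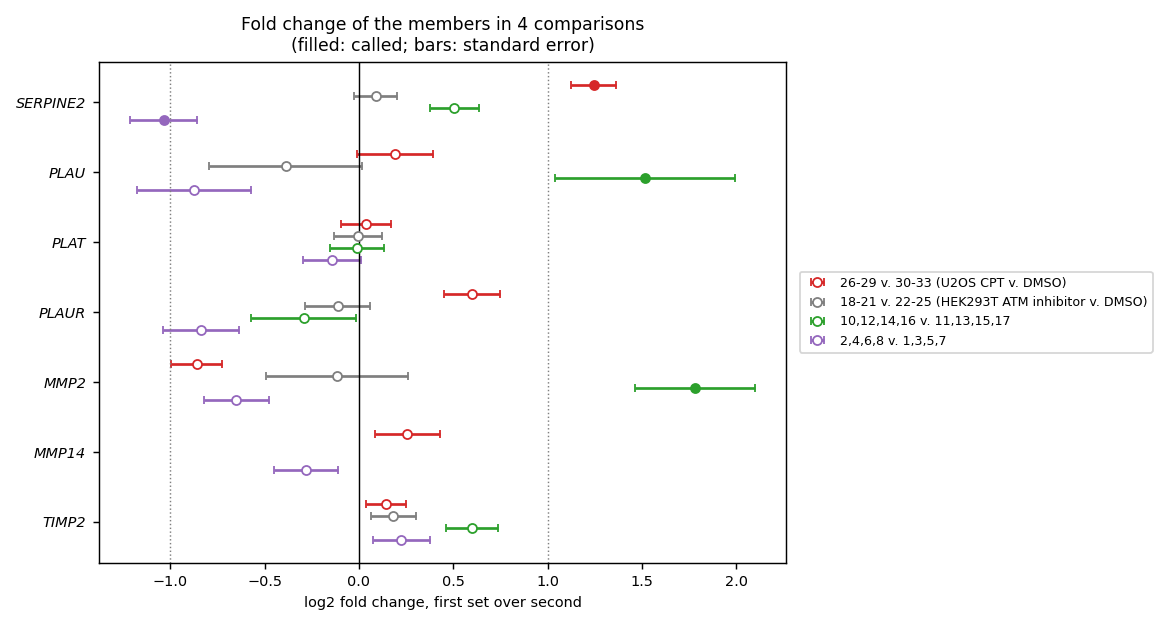
Log2 fold change (x axis, the set named first over its control set) of the 7 members tested in 4 comparisons, with bars of 1 standard error, filled points for called genes and dotted lines at the fold cutoff; MMP14 is left out where nearly all counts were 4 or fewer. SERPINE2 is called higher with CPT in U2OS libraries (1.25) and called lower in libraries 2, 4, 6 and 8 (-1.04), and PLAT stays near 0 in all 4.

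Of 18 other plasminogen genes 4 were called higher with CPT in U2OS cells and 0 lower, with a median log2 fold change of 0.53 (0.0079 over all genes). TFPI2, a Kunitz-type inhibitor of plasmin and other serine proteases, stood at 62.0 ± 12.2 against 17.3 ± 3.24 CPM. LRP1, the endocytic receptor that clears protease and serpin complexes, stood at 121 ± 5.78 against 55.2 ± 10.7 CPM.
Of 11 other metalloproteinases 4 were called higher and 0 lower. MMP3 (stromelysin-1) stood at 93.1, 51.6, 53.5 and 45.4 CPM in libraries 26 to 29, whereas libraries 30 to 33 held 3, 5, 2 and 3 counts. MMP12 (macrophage elastase) had 68, 24, 35 and 37 counts with CPT and 0 in all 4 DMSO libraries, which makes it at least 16.1-fold higher against 3 counts per library. MMP19 rose from 4.33 ± 0.69 to 12.7 ± 1.44 CPM.

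Of 10 inhibitors and regulators of metalloproteinases 2 were called higher and 1 lower, with a median of -0.0057. TIMP1 rose from 194, 217, 222 and 316 CPM to 642, 661, 636 and 624 CPM, a log2 fold change of 1.44 ± 0.12, while TIMP2 did not pass the test. SPOCK1 (testican-1, a matrix proteoglycan) rose from 25.6 ± 2.86 to 117 ± 14.2 CPM, and PCSK5, a proprotein convertase, fell from 48.3 ± 9.53 to 23.2 ± 2.81 CPM.
Of 26 ADAM and ADAMTS proteases 6 were called higher and 2 lower. The aggrecan-cleaving ADAMTS5 and ADAMTS1 had log2 fold changes of 2.25 ± 0.38 and 2.32 ± 0.35 from levels of 1.45 ± 1.00 and 1.91 ± 1.52 CPM, ADAMTS17 had 3 or 4 counts in each CPT library against 0 to 2, and ADAM22 and ADAMTS10 fell by 1.51 and 1.26 on the log2 scale. Of 22 cathepsins and other pericellular proteases 3 were called higher and 1 lower. FAP (fibroblast activation protein) rose from 7.0 ± 2.01 to 29.2 ± 2.87 CPM, CTSS (cathepsin S) had 4 to 8 counts against 1 to 3, and CTSV (cathepsin V) fell from 238 ± 38.5 to 111 ± 3.47 CPM.

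**Figure D3:**
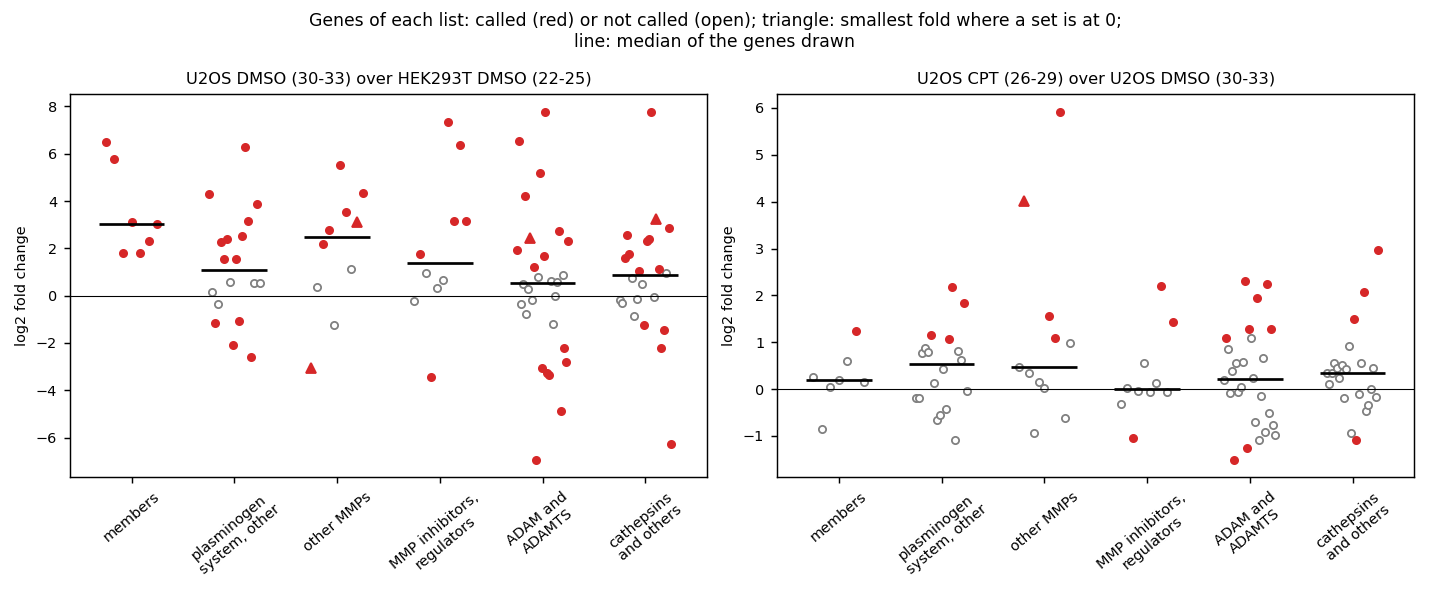
Log2 fold changes (y axis) of the genes tested in each list (x axis), between the lines with DMSO (left) and with CPT against DMSO in U2OS cells (right); red points were called, open points were not, triangles give the smallest fold where a set was at 0, and lines are medians. Points of genes with 1 to 4 counts in a set, such as MMP14 on the left, are fitted values with no measured fold. All 7 members are red on the left and SERPINE2 alone of them on the right. MMP3 is drawn highest on the right, at a fitted 5.92 that rests on 2 to 5 counts per DMSO library. MMP12, at 0 with DMSO, is drawn at its smallest fold, so the 2 cannot be ranked.

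Other features of the libraries moved with CPT in U2OS cells. Mitochondrially encoded genes took 30.5% to 32.3% of the counts in libraries 26 to 29 and 20.6% to 26.8% in libraries 30 to 33. The TMM factors raised the levels of libraries 26 to 29 over those of 30 to 33 by 0.16 on the log2 scale, and those of libraries 30 to 33 over 22 to 25 by 0.21. Without them the log2 fold change of MMP2 passed the fold cutoff (-1.03), and 2 members were called. With mitochondrially encoded genes left out, SERPINE2 alone was called. CDKN1A stood at 460.0 ± 26.8 against 98.1 ± 5.65 CPM and MDM2 at 538 ± 22.8 against 135 ± 3.92 CPM. Of the 8 genes that mark the U2OS line 5 were called higher with CPT, and their sum was 2106 to 2236 CPM against 1003 to 1111 CPM. The sum over the 8 genes listed for HEK293T cells was 181 to 192.3 CPM with CPT against 348.5 to 465.8 CPM with DMSO. The part of these features in the result was not tested.

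Libraries 10, 12, 14 and 16 against 11, 13, 15 and 17, all with the HEK293T profile, called 2 members higher, MMP2 and PLAU, where 9.52% of 19464 genes were called higher and 4.45% lower. MMP2 stood at 7.59, 6.25, 4.29 and 15.7 CPM in the even libraries and at 2.24, 2.87, 3.22 and 2.03 CPM in the odd ones. The sets did not overlap, library 16 stood highest, and the fold was 3.44 (log2 fold change 1.78 ± 0.32 SE, adjusted p = 1.33e-04). PLAU stood at 2.53, 3.26, 1.43 and 1.53 CPM against 0.64, 0.34, 1.41 and 0.61 CPM. Those values rest on 5 to 12 counts in the even libraries and 2 to 7 in the odd ones, and libraries 14 and 15 nearly touched. Its log2 fold change was 1.52 ± 0.48 (adjusted p = 0.0162), and without library 12 PLAU was no longer called (1 member called).

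Both inhibitors were higher by less than the fold cutoff. TIMP2 stood at 72.8, 66.3, 75.0 and 98.2 CPM against 56.3, 62.2, 38.3 and 51.7 CPM, with a log2 fold change of 0.60 ± 0.14 (adjusted p = 0.00175). SERPINE2 stood at 57.1, 66.8, 50.4 and 60.3 CPM against 44.9, 38.9, 35.9 and 47.4 CPM, with a log2 fold change of 0.51 ± 0.13 (adjusted p = 0.00416). Neither gene overlapped between the sets. PLAT did not pass the test, at 27.3 ± 1.15 against 27.9 ± 3.51 CPM, nor did PLAUR at 9.22 ± 4.19 against 11.1 ± 3.12 CPM. MMP14 had 2, 1, 1 and 4 counts in the even and 1, 1, 0 and 0 in the odd libraries, too few for a fold.

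Among the other plasminogen genes in these libraries 6 of 19 were called higher and 3 lower. SERPINB8, an intracellular serpin, had 4 to 6 counts in the even libraries and at most 1 in the odd ones, and PLGRKT, a plasminogen receptor, fell by 1.29 on the log2 scale. Of 10 other metalloproteinases 4 were called higher and 0 lower, with a median of 0.56, or 0.15 with genes at 0 set to their smallest fold. MMP13 (collagenase-3) had 3 to 10 counts against 0 in all 4 odd libraries, at least 2.21-fold higher.
None of 11 inhibitors and regulators was called by edgeR's quasi-likelihood test, and 6 had an unadjusted p under 0.05, as did 8636 of all 19464 genes tested. Of 28 ADAM and ADAMTS proteases 4 were called higher and 1 lower, with ADAMTS5 at 5.33 ± 0.96 against 0.71 ± 0.21 CPM and ADAMTS2, which trims procollagen, at 6.68 ± 1.47 against 15.9 ± 3.51 CPM. Of 21 cathepsins and others 1 was higher, CTSS with 3 to 9 counts against 0 to 3, and 1 lower, CTSH (cathepsin H) at 28.7 ± 4.41 against 62.8 ± 9.60 CPM. Mitochondrially encoded genes took 13.7% to 18.8% of counts in the even and 9.70% to 11.1% in the odd libraries. Genes marking the U2OS line summed to 94.0 to 148 CPM in the even and 45.3 to 55.1 CPM in the odd libraries, with 3 of the 7 tested called higher and TGFBI at 0 in all odd libraries. The part of either in these values was not tested.

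The MMP2 response had opposite signs in the U2OS CPT pair and in libraries 10 to 17. The difference of the responses, tested as an interaction in a fit of all 16 libraries, was -2.68 ± 0.33 on the log2 scale (adjusted p = 2.35e-08), and MMP2 was the only member called, where 5.15% of 22363 genes were called higher and 6.71% lower. PLAUR and SERPINE2 had a difference in favour of the U2OS pair that missed the fold cutoff, 0.91 ± 0.30 (adjusted p = 0.0247) and 0.74 ± 0.18 (adjusted p = 0.00166). For PLAU the difference was -1.31 ± 0.51, with adjusted p = 0.0614, and for TIMP2 it was -0.45 ± 0.18, with adjusted p = 0.0727. PLAT did not differ beyond its error (0.05 ± 0.20). This test uses the same U2OS libraries as the comparison of CPT with DMSO, so its values restate that comparison in part. The pairs also differ in the line of their profile and come from separate runs of library numbers. For its proteomics, made in parallel with the RNA, the paper lists a higher CPT dose in U2OS than in HEK293T cells. Line, dose and library series cannot be told apart in this difference.
In the lists, SPOCK1, ADAMTS1, CTSL (cathepsin L) and the thrombin receptor F2R had the largest called difference of their list in favour of the U2OS pair, at 2.39, 2.11, 1.67 and 1.94 on the log2 scale. Differences in the other direction were called for ADAMTS10 (-2.25), CTSV (-1.71) and the low-count genes SERPINB8 and MMP13.

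Libraries 2, 4, 6 and 8 against 1, 3, 5 and 7, all with the U2OS profile, called SERPINE2 lower, where 2.80% of 18591 genes were called higher and 2.44% lower. SERPINE2 stood at 131, 123, 126 and 75.3 CPM in the even libraries and at 339, 159.9, 247 and 185 CPM in the odd ones. Every even library lay below every odd library, library 8 was the lowest and library 1 the highest. The log2 fold change was -1.04 ± 0.18 (SE), with adjusted p = 1.77e-05, and without library 8 or without library 1 it no longer reached the fold cutoff (0 members called). Without TMM factors 0 members were called as well.

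PLAUR, PLAU and MMP2 were lower in the even libraries by less than the fold cutoff, and their sets overlapped. PLAUR stood at 60.7, 65.6, 52.1 and 31.7 CPM against 113, 63.4, 132 and 56.6 CPM (log2 fold change -0.84 ± 0.20, adjusted p = 0.00213). PLAU stood at 14.1, 16.1, 10.7 and 3.92 CPM against 21.3, 16.3, 28.3 and 7.04 CPM (log2 fold change -0.87 ± 0.30, adjusted p = 0.0444). Library 8 was the lowest even library for SERPINE2, PLAUR and PLAU, and library 7 the lowest odd library for PLAUR and PLAU. Without library 7 PLAUR and PLAU were called too, which makes 3 members, and without library 4 PLAU was, which makes 2.
MMP2 stood at 54.5, 96.2, 73.1 and 43.3 CPM against 113, 101, 112 and 91.8 CPM (log2 fold change -0.65 ± 0.17, adjusted p = 0.00592). MMP14 at 57.3 ± 13.6 against 71.2 ± 18 CPM, PLAT at 172 ± 21.9 against 189.5 ± 34.8 CPM and TIMP2 at 415 ± 63.2 against 355 ± 49.9 CPM did not pass the test. TIMP2 was highest in library 8, at 509.7 CPM, the library in which SERPINE2 was lowest.

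In these libraries the lists held 2 to 6 called genes each, beside the 2.80% higher and 2.44% lower over all genes tested. Of 18 other plasminogen genes 1 was higher and 1 lower: TFPI, the inhibitor of the tissue factor pathway, at 166 ± 32.7 against 66.6 ± 15.3 CPM, and F3, tissue factor itself, at 20.2 ± 5.84 against 51.4 ± 19.6 CPM. Of 11 other metalloproteinases 1 was higher and 1 lower. The lower was MMP9 (gelatinase B), at 0.74 ± 0.70 against 4.23 ± 2.18 CPM, and the higher was MMP3, named after its values were seen, with overlapping sets and a log2 fold change of 1.57 ± 0.41. Of 12 inhibitors and regulators 1 was higher, THBS2 (thrombospondin-2) with 1 to 5 counts against 0, and 1 lower, THBS1 (thrombospondin-1) at 242 ± 70.2 against 621 ± 167 CPM. ADAM and ADAMTS proteases had 2 of 26 higher and 4 lower, with ADAMTS1 at 11.6 ± 6.66 against 3.31 ± 1.43 CPM and ADAMTS16 at 2.25 ± 0.85 against 9.23 ± 3.39 CPM. Cathepsins and others had 2 of 21 higher and 1 lower, with DPP4 at 4.24 ± 1.30 against 0.79 ± 0.77 CPM and FAP at 2.96 ± 1.39 against 13.2 ± 5.18 CPM.

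Set against the response to CPT in libraries 26 to 33, that of libraries 1 to 8 differed for 3 members, where 5.58% of 20539 genes were called higher and 5.19% lower. SERPINE2 differed by 2.28 ± 0.23 on the log2 scale (adjusted p = 5.06e-12), PLAUR by 1.44 ± 0.27 (adjusted p = 3.67e-05) and PLAU by 1.08 ± 0.39 (adjusted p = 0.0427). These are the inhibitor, receptor and activator whose promoters are printed above. MMP2, lower in both comparisons, differed by -0.20 ± 0.23, and MMP14, PLAT and TIMP2 did not pass the test either. The call of PLAU was lost with DESeq2, with edgeR's likelihood ratio test, with edgeR's filterByExpr filter, without TMM factors and with mitochondrially encoded genes left out. This test again shares libraries 26 to 33 with the comparison of CPT with DMSO. The pairs also come from separate runs of library numbers, and the rule takes libraries 1 to 8 as ATM knockout and wild type. What was compared and the library series cannot be told apart in this difference. Differences in favour of CPT were called for SPOCK1 (2.35), ADAMTS8 (3.03) and FAP (4.47), and against it for MMP15 (-1.72), ADAMTS10 (-1.82) and HPSE, heparanase (-1.68). MMP12 is left without a fold, since libraries 30 to 33 held none of it.

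**Figure D4:**
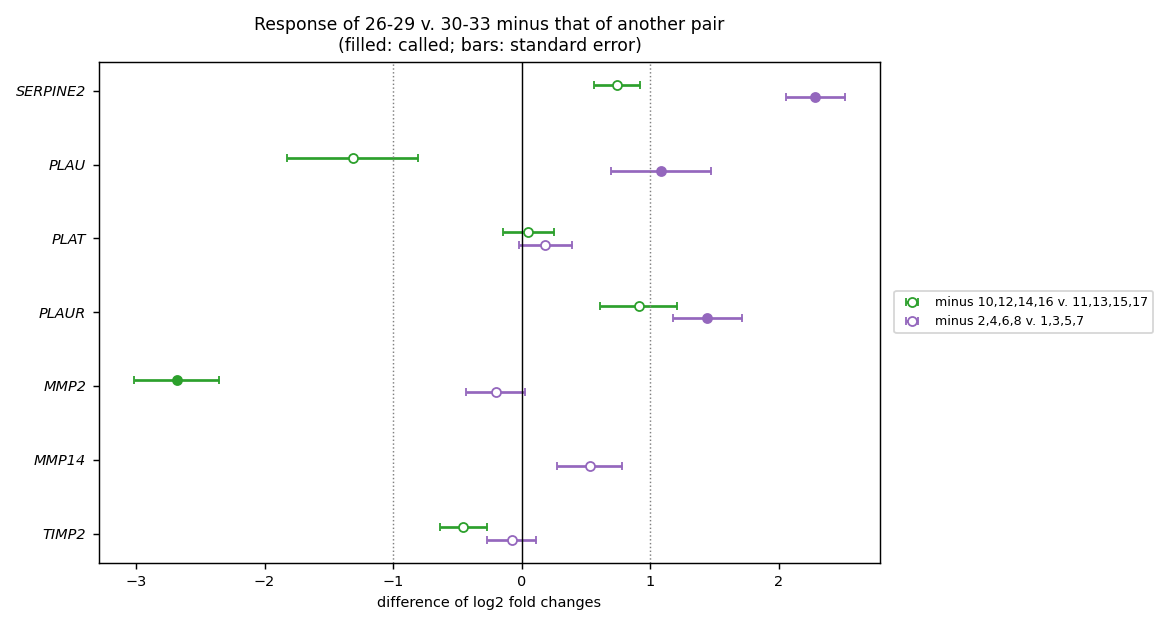
Difference of log2 fold changes (x axis), the response of U2OS CPT libraries 26 to 29 over 30 to 33 minus that of another pair, for the 7 members, with bars of 1 standard error, filled points for called genes and dotted lines at the cutoff; MMP14 is left out for libraries 10 to 17. MMP2 is called against libraries 10 to 17 (-2.68), and SERPINE2 (2.28), PLAUR (1.44) and PLAU (1.08) against libraries 1 to 8.

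No member was called with the ATM inhibitor in HEK293T cells, where 0 of 18413 genes tested were called (0.00% higher and 0.00% lower). By edgeR's likelihood ratio test 2 genes were called. By the quasi-likelihood test 1019 of the 18413 genes had an unadjusted p under 0.05. SERPINE2 stood at 52.6, 53.3, 58.9 and 65.7 CPM in libraries 18 to 21 against 55.1, 52.8, 61.6 and 48.7 CPM in libraries 22 to 25 (log2 fold change 0.09 ± 0.11). TIMP2 stood at 61.0, 67.0, 77.1 and 75.9 CPM against 65.5, 49.5, 72.2 and 62.1 CPM (log2 fold change 0.18 ± 0.12). PLAUR was highest in library 21, at 30.5 CPM, with 14.8 to 17.4 CPM in the other 3 and 18.3 to 23.1 CPM in the DMSO libraries. PLAT stood at 42.0 ± 6.81 against 42.4 ± 6.23 CPM, PLAU at 1.71 ± 0.91 against 2.23 ± 0.21 CPM and MMP2 at 2.35 ± 0.92 against 2.57 ± 1.05 CPM. MMP14 had 4 counts or fewer in all 8 libraries. Every adjusted p of the 7 was 0.917 or higher by edgeR's quasi-likelihood test, 0 had an unadjusted p under 0.05, and the likelihood ratio test and DESeq2 called 0 as well. In the 5 lists 0 of 85 genes tested were called by the quasi-likelihood test, and 5 had an unadjusted p under 0.05.

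Over the 8 sets of 4 libraries, the mean levels of SERPINE2 were 636.5 ± 83.0 CPM in U2OS CPT libraries, 270.1 ± 33 in U2OS DMSO libraries, 233 ± 79.8 in libraries 1, 3, 5 and 7 and 114 ± 25.9 in libraries 2, 4, 6 and 8. The 4 sets with the HEK293T profile lay at 58.6 ± 6.85 (10, 12, 14 and 16), 57.6 ± 6.06 (18 to 21), 54.6 ± 5.37 (22 to 25) and 41.8 ± 5.32 CPM (11, 13, 15 and 17). The neighbours at 270.1 and 233 CPM, and the 3 sets from 54.6 to 58.6 CPM, did not differ beyond their spread. PLAT stood at 148 to 189.5 CPM in the sets with the U2OS profile and 27.3 to 42.4 CPM in those with the HEK293T profile, and was called in no comparison within a line.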

How the data were processed

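QuantSeq 3′ libraries of HEK293T and U2OS RNA (32 in all) were analysed. The authors deposited raw counts per Ensembl gene, made with Lexogen's FWD UMI pipeline, without normalization. The aligner, genome build and annotation release are not given in the sources used here. The table held 60107 genes; 92 spike-in rows and 5 summary rows, the latter with 10.9% to 40.5% of the reads of a library, were left out. Symbols came from GENCODE 29. Intervals and floors from counts cover counting error only.

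Tests were run in R 4.3.3 with edgeR 4.0.16 (TMM factors and the quasi-likelihood test). A gene entered a fit where 2 or more of its libraries held over 1 count of it, and p-values were adjusted by Benjamini-Hochberg over all genes of a comparison. The filter and the cutoffs, an adjusted p under 0.05 and a log2 fold change beyond 1 in either direction, follow the study's methods, which used the likelihood ratio test. The 5 pairs of sets were fitted on their own 8 libraries, and the 2 differences of responses as interaction terms over 16 libraries. Standard errors are the log2 fold change over the square root of F. Alternatives were RLE normalization, edgeR's filterByExpr, no filter, the likelihood ratio test, DESeq2 1.42.0, a fit of all 32 libraries, no cutoff on fold change, groups by label, and each library left out. Scaling by total counts, leaving out mitochondrially encoded genes and a second comparison of the lines were added after seeing the data. The fits were tested on simulated data. Replicates correlated with Pearson's r of at least 0.972 (log2 CPM, across genes), and no library appeared to be deposited in duplicate.

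The members and lists were chosen with earlier results of these data known. Besides the members, ATM, CDKN1A and MDM2, the genes named from each list are those called, not overlapping between sets and above 1 CPM on average, up to 3 with the largest rise and 3 with the largest fall for CPT in U2OS cells and 1 of each in other comparisons; 1 gene so chosen is not reported here. The genes that mark the U2OS line are a list of their own, and the 8 genes listed for HEK293T cells summed to 253 to 663 CPM in libraries with the HEK293T profile and 130 to 466 CPM in the others, ranges that overlap.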

Additional observations from a re-analysis of the deposited data

Results flagged for a closer look

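In 4 of 55 sets of 4 libraries a single library stood apart by Dixon's test, which chance gives in about 1 of 20 sets. SERPINE2 was lowest in library 26 of the U2OS CPT libraries, at 512.1 CPM, and lowest in library 8 of libraries 2, 4, 6 and 8, at 75.3 CPM. TIMP2 was highest in the same library 8, at 509.7 CPM. PLAUR was highest in library 21 of the ATM inhibitor libraries, at 30.5 CPM.

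Responses differed between pairs of sets by an interaction test (adjusted p under 0.05, with no cutoff on fold change) for 3 members in each of 2 contrasts. By the same rule 4544 of 22363 genes tested differed in the contrast with libraries 10 to 17. In that with libraries 1 to 8, 3634 of 20539 did. The response of U2OS cells to CPT minus that of libraries 10 to 17 was 0.74 for SERPINE2, 0.91 for PLAUR and -2.68 for MMP2 on the log2 scale. Minus that of libraries 1 to 8 it was 2.28 for SERPINE2, 1.44 for PLAUR and 1.08 for PLAU.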

How the results depend on the processing

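No paired analysis was possible because the groups share no replicate numbers and the labels name no pairs. The number of members called with CPT in U2OS cells was 1, and became 3 with no cutoff on fold change and 2 without TMM factors. For libraries 10 to 17 it was 2, and became 4 with no cutoff, 1 with the filterByExpr filter, 0 with groups by the deposited label and 1 to 2 with each library left out. For libraries 1 to 8 it was 1, and became 4 with no cutoff, 0 without TMM factors, 0 by label and 0 to 3 with each library left out. For the difference between the U2OS CPT response and that of libraries 10 to 17 it was 1, and became 3 with no cutoff, 2 with no filter, 2 with the likelihood ratio test, 2 without TMM factors and 1 to 2 with each library left out. It stayed at 7 between the lines and at 0 for the ATM inhibitor in every alternative, and at 2 to 3 for the difference from libraries 1 to 8, where PLAU is the member lost. With no cutoff, 6091 of 19080 genes tested passed with CPT in U2OS cells, 6785 of 19464 in libraries 10 to 17 and 2415 of 18591 in libraries 1 to 8. For the difference from libraries 10 to 17, 4544 of 22363 passed. The groups by label mix libraries of both profiles. The cause of the other changes was not tested.

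Of 946 recomputed fold changes of members 864 kept direction and side of the threshold, 17 lost a call, 23 gained one and 42 changed sign. By label, libraries 10 to 17 gave log2 fold changes of -0.86 for SERPINE2, -0.93 for PLAU, -1.60 for MMP2, -5.18 for MMP14 and -0.64 for TIMP2, and libraries 1 to 8 gave 0.23 for PLAT and 0.19 for MMP14. PLAT in libraries 10 to 17 was 0.030 with RLE normalization, 0.054 with filterByExpr, 0.030 with DESeq2 and 0.013 without TMM factors. Without TMM factors PLAT was -0.13 and TIMP2 -0.028 with CPT in U2OS cells, MMP14 was -0.013 with the ATM inhibitor, and the differences of responses for PLAT were -0.14 from libraries 10 to 17 and -0.020 from libraries 1 to 8. With filterByExpr the former was -0.011.

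These members changed sign when a library was left out. With CPT in U2OS cells PLAU ran from -0.011 to 0.35 and PLAT from -0.067 to 0.15. With the ATM inhibitor PLAT ran from -0.12 to 0.067, MMP2 from -0.34 to 0.082 and MMP14 from -0.28 to 0.43. PLAT ran from -0.065 to 0.086 in libraries 10 to 17 and from -0.049 to 0.20 in the difference from them. In the difference from libraries 1 to 8 MMP2 ran from -0.39 to 0.016 and TIMP2 from -0.17 to 0.039. Depth limits MMP14 and PLAU in libraries with the HEK293T profile, where PLAU held 2 to 12 counts.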
